A study of Mus musculus with 6 samples.

Results

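The matricellular and adhesive glycoprotein genes examined here were the 5 thrombospondin genes Thbs1, Thbs2, Thbs3, Thbs4 and Comp, together with Postn, Tnc, Sparc, Cilp and Fn1, 10 of the 55421 genes in the deposited table. They were taken by gene name from the table of each library and joined by gene identifier to the table of estimated counts. The genes were chosen with the difference between the groups already known, so their levels and fold changes are given as a description, without a p-value. RNA-seq was performed on day 4 of differentiation, in low horse serum with insulin, on DM1 myoblasts without (control) and with overexpression of miR-322/-503, with 3 libraries in each group. Both lines descended from C2C12, mouse muscle precursor cells that form myotubes in culture, and both carried a stable pCDNA3-GFP plasmid with 200 CTG repeats behind GFP (CUG200), which models the toxic repeat RNA of myotonic dystrophy type 1 (DM1). The control additionally carried an empty vector, and the miR-322/-503 line carried pLL4.0 with the miR-322/-503 fragment. Each group was thus its own drug-selected line, so differences that arose between the lines during selection and effects of the microRNAs cannot be told apart. Whether a line was a clone or a pool is not given in the sources used here. The labels do not say that the libraries came from separate cultures, and the methods describe biological and technical replicates for assays in general without saying which these libraries are. The p-values measure only the spread between these libraries, which may be technical.

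Matricellular proteins are secreted into the extracellular matrix, where they bind structural fibres, growth factors and cell surface receptors and tune adhesion more than they bear load. They are known for low levels in resting adult muscle and for a rise during development, repair and fibrosis. Fibronectin, the product of Fn1, is a structural adhesive protein on which many of them assemble. Myoblasts and fibroblasts both secrete several of these proteins, and C2C12 cultures are known to lay down a matrix of their own.

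The libraries held between 73532084 and 92157388 estimated counts, or between 18383021 and 23039347 read pairs at about 4 counts per pair. The labelled cell type was checked against its markers. All 10 muscle markers on the list had counts, and their summed level ran from 3716 to 4114 TPM (the authors' value per transcript length, scaled to the same total in each library) in the control and from 4640 to 4852 TPM with miR-322/-503. Few counts fell on the genes of the overexpressed microRNAs. Their mature forms, of 22 and 23 bases, are far shorter than the about 300 bases covered by a read pair. Such counts therefore do not measure the level of the mature microRNAs. For Mir322 the control libraries had 1, 7 and 2 estimated counts and those with miR-322/-503 had 17, 0 and 3. For Mir503 the control had 1, 1 and 2 and the other group 6, 4 and 5. Counts were compared with edgeR's quasi-likelihood test over 18140 genes, and genes past both cut-offs of the study, adjusted p under 0.05 and a log2 difference beyond 1 in either direction, are said to be called.

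The mature sequences of the overexpressed microRNAs are shown because the members differ in whether their 3'UTR holds a match to them. Capitals mark bases 2 to 8, the seed, and the sequences are those of RefSeq on GRCm38.p6. They share bases 2 to 7 and differ in base 8.
mmu-miR-322-5p (chrX:53054306-53054327, minus strand): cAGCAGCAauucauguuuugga
mmu-miR-503-5p (chrX:53054027-53054049, minus strand): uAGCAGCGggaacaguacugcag
The letters GCTGCT, which pair with the shared bases 2 to 7, were found in the longest annotated 3'UTR of 3 of the 10 genes. Over the 13416 tested genes with a 3'UTR of at least 50 bases, 45.2% held them. Thbs2 held 3 matches, Thbs1 held 2 and Sparc held 1. Comp, Thbs3, Thbs4, Postn, Tnc, Cilp and Fn1 held none in these windows. The matches are given with their GRCm38 position in the 3'UTR, GCTGCT in capitals and the flanking bases in lower case.
Thbs2 (chr17:14667294-14667320, minus strand): gcttccagcctGCTGCTggaaaacatt
Thbs2 (chr17:14666611-14666637, minus strand): ttcctgtccctGCTGCTaggaaacaga
Thbs2 (chr17:14666527-14666553, minus strand): atgatgcaaaaGCTGCTtttgccaaat
Thbs1 (chr2:118125587-118125613, plus strand): catttctgcatGCTGCTggtgagagct
Thbs1 (chr2:118126274-118126300, plus strand): cagcagaggcaGCTGCTtttcatctgg
Sparc (chr11:55394573-55394599, minus strand): ttcatgaaaaaGCTGCTtctcattaac
The first and second matches of Thbs2 and the first of Thbs1 also pair with base 8 of miR-322-5p, a heptamer held by 24.4% of the same genes, and none of the 6 pairs with base 8 of miR-503-5p. A match of letters is a description and not a measured binding site.

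In the control, the levels of the 10 genes reached from 0 to among the most abundant messages of the cells. Sparc, which encodes a collagen-binding glycoprotein, had a mean of 9972 ± 261 TPM (SD, n = 3) and rank 10 among all genes in the order of mean TPM. Fn1 followed with 7267 ± 143 TPM, then Thbs1 with 2389 ± 80.4 TPM and Tnc with 533 ± 14.2 TPM. Cilp with 361 ± 14.8 TPM and Postn with 351 ± 31.6 TPM overlapped between libraries and could not be ordered. Thbs2 had 67.1 ± 3.37 TPM, Thbs3 between 19.4 and 23.2 TPM and Comp 1.70 ± 0.188 TPM, while Thbs4 was at 0 in each control library. Apart from Cilp and Postn, no neighbours in this order overlapped. With miR-322/-503 the order changed in its middle. Thbs2 moved above Postn and Cilp with 109 ± 6.41 TPM, Postn had 48.6 ± 2.62 TPM, and Cilp with 12.6 ± 0.889 TPM overlapped with Thbs3, which lay between 9.37 and 12.4 TPM. Among all genes, Cilp went from rank 363 to rank 8329, Postn from rank 375 to rank 3120, Thbs1 from rank 40 to rank 116 and Thbs2 from rank 2348 to rank 1280. Sparc with 6171 ± 600 TPM and Fn1 with 5540 ± 230 TPM, clearly apart in the control, also overlapped.

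**Figure D1:**
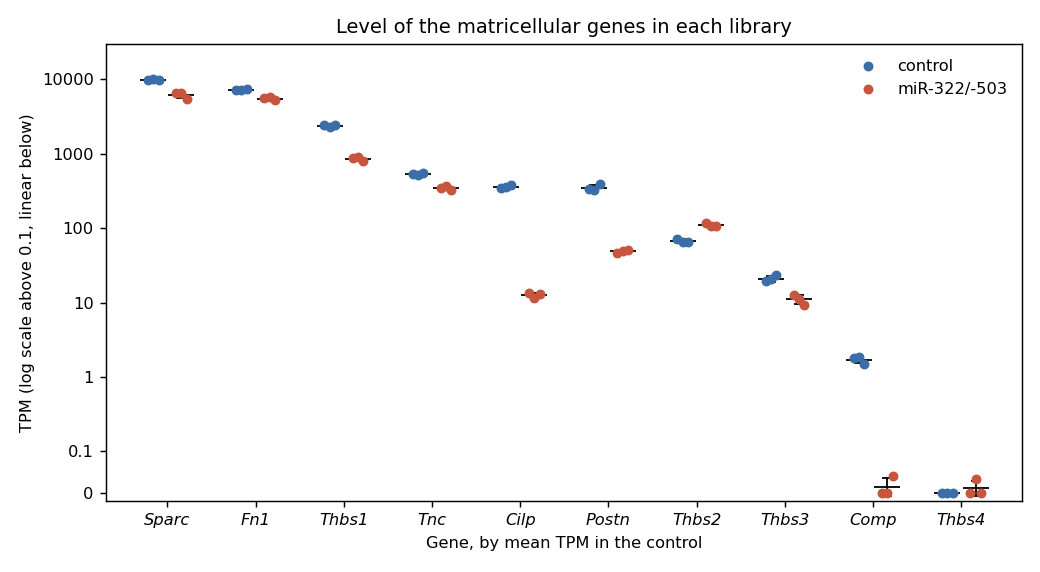
TPM of each gene (vertical axis, log scale above 0.1 and linear below) in each library, with genes ordered by their mean in the control; points are libraries, the bar is the mean and the whisker the SD (n = 3). The miR-322/-503 points lie under the control points for 8 genes, above them for Thbs2, and Thbs4 lies at or near 0 in both groups.

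Of the 10 genes, 9 passed the expression filter, and Thbs4 did not. The control and miR-322/-503 libraries did not overlap for any of these 9, 8 of them lower and 1 higher with miR-322/-503, where 45.2% of all tested genes did not overlap (23.6% lower and 21.6% higher). The 5 genes Thbs1, Thbs3, Comp, Postn and Cilp were called lower and none was called higher, where 9.87% of all tested genes were called (5.29% lower and 4.59% higher). By the p-value cut-off alone, Tnc, Sparc and Fn1 were also lower and Thbs2 was higher, where 28.8% of all tested genes passed (15.5% lower and 13.2% higher). The median log2 fold change of the 9 was -1.03, against -0.0066 for all tested genes. Since the genes were chosen on this difference, nothing is read from these counts. The member nearest to the fold cut-off on its inner side was Thbs3, with a log2 fold change of -1.03, and the nearest on its outer side was Sparc, with -0.79.

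The thrombospondins are calcium-binding glycoproteins that fall into a group of trimers, Thbs1 and Thbs2, which bind the receptors CD36 and CD47, and a group of pentamers, Thbs3, Thbs4 and Comp, which are known from cartilage, tendon and muscle attachment sites. Thbs1 (ENSMUSG00000040152, chr2:118111876-118127133 of GRCm38, plus strand) encodes thrombospondin-1, an activator of latent TGF-β and an inhibitor of angiogenesis. It had 2437, 2296 and 2432 TPM in the control libraries and 871, 897 and 809 TPM in the miR-322/-503 libraries. Each miR-322/-503 library was far under the lowest control library. The log2 fold change was -1.45 (standard error 0.04), or 2.74-fold lower.

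Thbs2 (ENSMUSG00000023885, chr17:14665500-14694235, minus strand), the closest relative of Thbs1, went the other way. It had 71.0, 64.8 and 65.4 TPM in the control and 117, 106 and 105 TPM with miR-322/-503, and each miR-322/-503 library was above the highest control library. The log2 fold change was 0.73 (standard error 0.06), or 1.66-fold higher. The ratio of Thbs1 to Thbs2 TPM was therefore 35.6 ± 1.43 in the control (SD, n = 3) and 7.88 ± 0.537 with miR-322/-503. Thbs1 remained the more abundant of the trimeric forms in each library. The GCTGCT matches shown above lie in the 3'UTR of these genes, of which Thbs1 was lower and Thbs2, with the larger number of matches, was higher. Over the 13416 tested genes with a 3'UTR, the median log2 fold change was 0.006 with GCTGCT and -0.032 without. An effect of the matches on the members was not tested.

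Thbs3 (ENSMUSG00000028047, chr3:89215180-89226837, plus strand), a pentamer with roles in skeletal growth, had 19.4, 20.4 and 23.2 TPM in the control and 12.4, 11.2 and 9.37 TPM with miR-322/-503. Its groups did not overlap, and the log2 fold change was -1.03 (standard error 0.10). Without miR-322/-503 replicate 3 the log2 fold change was -0.96 and Thbs3 was no longer called. Comp (ENSMUSG00000031849, chr8:70373558-70382066, plus strand), cartilage oligomeric matrix protein, organizes collagen fibrils in cartilage and tendon. It had 175, 194 and 161 estimated counts in the control libraries and 0, 0 and 4 in the miR-322/-503 libraries, the last being a single read pair. Its message was present at a low level in each control library and at or under the floor of 3 read pairs (12 estimated counts per library) in each miR-322/-503 library, which makes it at least 14.6-fold lower. Thbs4 (ENSMUSG00000021702, chr13:92751590-92794818, minus strand), which is known from tendon and injured muscle, had no counts in 5 libraries and 4 counts in miR-322/-503 replicate 2. Levels of Thbs4 up to 0.155 CPM (estimated counts scaled to the TMM-normalized library size) in the control and 0.160 CPM with miR-322/-503 would not have been detectable by this floor, which covers counting error only, and no fold is given.

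Cilp (ENSMUSG00000042254, chr9:65265180-65280605, plus strand) encodes cartilage intermediate layer protein, a matrix glycoprotein that can bind TGF-β1 and that is known from cartilage and cardiac fibroblasts. It had 351, 354 and 378 TPM in the control and 13.3, 11.6 and 12.8 TPM with miR-322/-503. The libraries of each group were close to one another and the groups lay far apart, and the log2 fold change was -4.82 (standard error 0.09), or 28.2-fold lower. Of the genes with a fitted fold change away from the floor, Cilp had the largest change of the 10, and over all 18140 tested genes it was 99th from the lowest log2 fold change. Postn (ENSMUSG00000027750, chr3:54361109-54391037, plus strand) encodes periostin, a fasciclin-domain protein of fibroblasts that binds integrins and promotes collagen crosslinking. It had 336, 331 and 388 TPM in the control and 45.7, 49.2 and 50.9 TPM with miR-322/-503, without overlap. The log2 fold change was -2.96 (standard error 0.10), or 7.78-fold lower. Cilp and Postn thus had like levels in the control, with a Postn to Cilp TPM ratio of 0.973 ± 0.0479 (SD, n = 3), and unlike levels with miR-322/-503, with a ratio of 3.88 ± 0.413.

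Tnc (ENSMUSG00000028364, chr4:63959785-64047015, minus strand) encodes tenascin-C, a large hexameric glycoprotein that modulates adhesion to fibronectin and is known from tendon and regenerating muscle. It had 537, 517 and 544 TPM in the control and 352, 373 and 323 TPM with miR-322/-503, and the groups did not overlap. Its log2 fold change was -0.59 (standard error 0.05). Sparc (ENSMUSG00000018593, chr11:55394500-55423183, minus strand), a chaperone-like collagen-binding protein, had 9805, 10273 and 9837 TPM in the control and 6482, 6552 and 5479 TPM with miR-322/-503. No library of one group reached the other, and the log2 fold change was -0.79 (standard error 0.06), or 1.72-fold lower. Fn1 (ENSMUSG00000026193, chr1:71585520-71653200, minus strand) had 7108, 7311 and 7382 TPM in the control and 5609, 5727 and 5283 TPM with miR-322/-503. Fn1 moved least of the 9 tested genes, and the log2 fold change was -0.35 (standard error 0.04), or 1.27-fold lower. The splice forms of Fn1, Tnc and Postn, which change which domains the proteins carry, were not resolved, because the values are per gene.

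**Figure D2:**
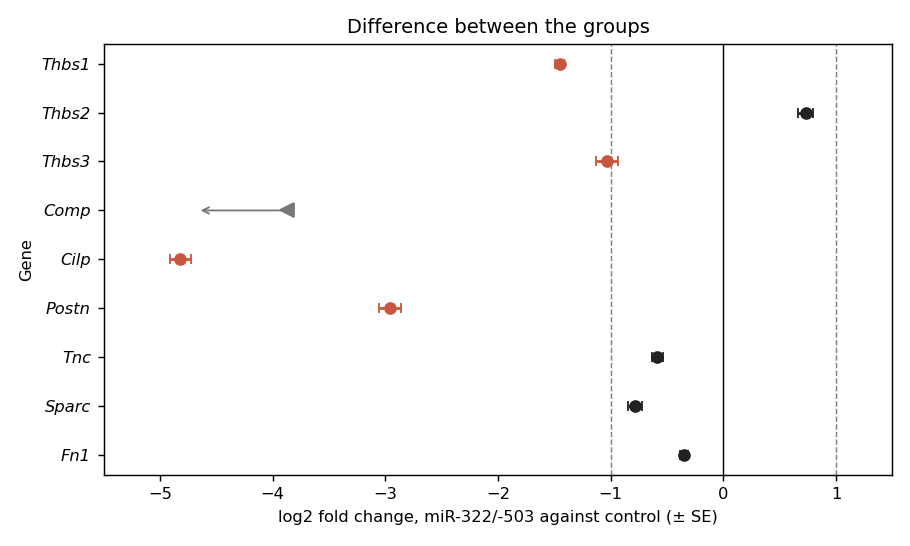
Log2 fold change of miR-322/-503 against control (horizontal axis, bars are the standard error from edgeR) for the 9 tested genes; red genes passed both cut-offs, dark genes passed the p-value cut-off only, dashed lines mark 1 and -1, and the gray arrow for Comp, which also passed both, starts at its bound of 14.6-fold lower. Cilp at -4.82 lies farthest to the left among the fitted values and Thbs2 at 0.73 is the only gene to the right of 0.

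Because Sparc, Fn1 and Thbs1 were so abundant, they set the summed level of the family. The 10 genes together made up 2.10% ± 0.0262 of all TPM in the control and 1.31% ± 0.0897 with miR-322/-503 (SD, n = 3), and the lowest control library, at 2.07%, was above the highest miR-322/-503 library, at 1.37%. Sparc gave 47.6% of the family's summed TPM in the control and 47.0% with miR-322/-503, and these shares overlapped between the groups. The share of Fn1 was 34.7% in the control and 42.3% with miR-322/-503, without overlap. Thbs1 went from 11.4% to 6.56% of the sum, Cilp from 1.72% to 0.0964% and Postn from 1.68% to 0.373%. Thbs2 went from 0.320% to 0.835%. In the control the coefficient of variation of CPM lay between 1.71% for Thbs3 and 10.8% for Comp. With miR-322/-503 it was 11.2% for Thbs3, the highest of the 8 tested genes other than Comp, and 1.99% for Fn1, the lowest.

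The position of the genes was examined because some chromosomes were shifted as a whole. Cilp lies on chromosome 9, with a median log2 fold change of -0.27 over 1014 tested genes, and Tnc on chromosome 4, with a median of -0.19 over 1046. The chromosomes of the other members had medians between -0.03 and 0.15. The 10 tested genes nearest to Cilp had a median of -0.30 and ranged from -2.45 to -0.05, so that Cilp at -4.82 lay under their range. Postn at -2.96 and Thbs3 at -1.03 also lay under the whole range of their 10 neighbours, whose lowest values were -1.20 and -0.66, and Thbs2 at 0.73 lay above the highest of its neighbours, at 0.36. Fn1 at -0.35 lay close to the median of its neighbours, -0.33, and Tnc and Sparc lay inside the range of theirs. Thbs1 at -1.45 lay above only 1 of its neighbours, the overlapping Gm29233 at -2.21, and under the lowest of the others, at -0.78. The bound for Comp, -3.87 on the log2 scale, lay under the lowest of its neighbours, at -1.03. The part of chromosome shifts in these differences was not tested beyond these values.

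**Figure D3:**
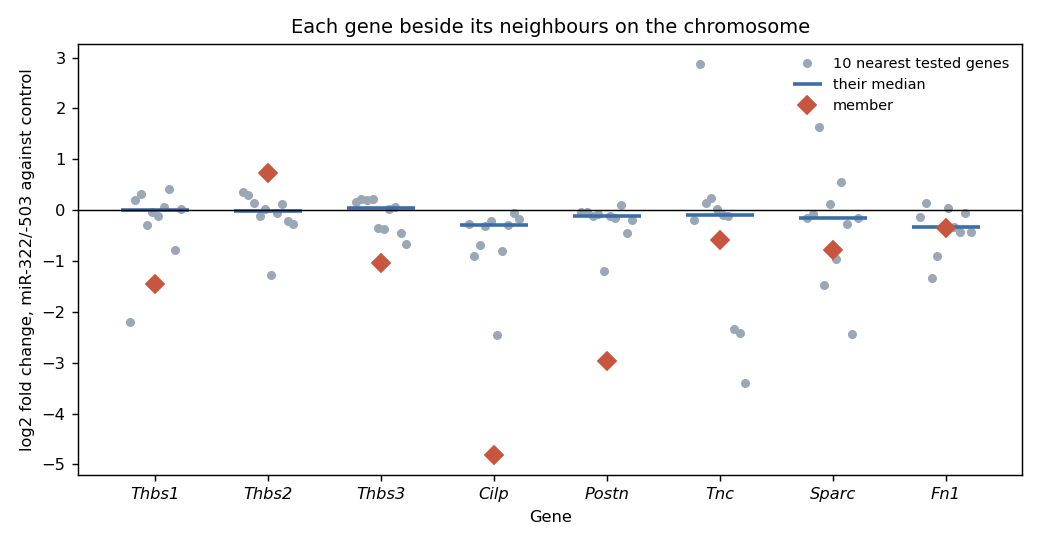
Log2 fold change of miR-322/-503 against control (vertical axis) for 8 of the genes (red diamonds), their 10 nearest tested genes on the same chromosome (gray points) and the median of those (blue line). Cilp, Postn, Thbs3 and Thbs2 lie outside the range of their neighbours, and Fn1 at -0.35 lies near the neighbour median of -0.33.

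Overlapping annotation limits 4 of the genes, because the strand setting of the counting is not given in the sources used here. The antisense Mtx1 overlaps exons of Thbs3, and with a log2 fold change of 0.17 it was not called while Thbs3 was lower. Mtx1 had up to 3571 counts in a library, more than the highest count of Thbs3, 2860. The limit therefore weighs most on Thbs3, and the part of Mtx1 reads in its values was not tested. The lincRNA Gm29233 lies within Thbs1 on the opposite strand and was called lower, with a log2 fold change of -2.21. With at most 204 counts in a library beside 629847 for Thbs1, reads of Gm29233 and of Thbs1 cannot be told apart. 8030451A03Rik overlaps Tnc and had a log2 fold change of -0.19, with at most 532 counts beside 170576 for Tnc. Apol7d at the start of Fn1 had at most 17 counts.

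Genes related to the family were followed with lists written with earlier results of these data known, and were tested in the same edgeR fit over all 18140 genes. Of 23 other matricellular and related glycoprotein genes, 18 were tested, 9 were called lower (5.29% of all tested genes) and 0 were called higher, by edgeR and by DESeq2. Of the 9, Tnn, Cilp2 and Vtn had a mean under 1 CPM in each group, and 6 to 8 were called when each library was left out. By the p-value cut-off alone, 11 were lower and 2 higher, where 15.5% and 13.2% of all tested genes were, and the median log2 fold change of the list was -1.17, against -0.0066 over all tested genes. Ccn5, which encodes a cysteine-rich matricellular regulator of the CCN family, fell from 70.8 ± 4.78 CPM in the control to 7.64 ± 1.45 CPM (SD, n = 3, log2 fold change -3.21, adjusted p = 8.48e-06, edgeR). Ccn1, of the same family, an immediate-early gene and a target of YAP, fell from 739 ± 25.3 CPM in the control to 224 ± 10.7 CPM (log2 fold change -1.72, adjusted p = 3.27e-06, edgeR).

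Matn3, a cartilage matrilin, fell from 3.23 ± 0.659 CPM in the control to 0.217 ± 0.189 CPM (log2 fold change -3.87, adjusted p = 0.00902, edgeR). Spock2, a testican related to Sparc, changed by -1.56 on the log2 scale (adjusted p = 7.37e-06, edgeR). Of genes named after their values were seen, Sparcl1, the closest relative of Sparc, went against it, with 2.97 ± 0.409 CPM in the control and 5.60 ± 0.493 CPM with miR-322/-503 (log2 fold change 0.91, adjusted p = 0.00394, edgeR). Cilp2, the relative of Cilp, was scarce at 0.842 ± 0.232 and 0.295 ± 0.0719 CPM (log2 fold change -1.51, adjusted p = 0.0196, edgeR). Its call was lost without control replicate 1, without control replicate 3, without miR-322/-503 replicate 3 and with a replicate block, where edgeR's adjusted p lay between 0.0542 and 0.0687. Spp1, which encodes osteopontin, stood at 1489 ± 167 and 1578 ± 127 CPM, with overlapping groups (adjusted p = 0.571, edgeR).

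Of 25 matrix receptors and integrin subunits listed beside the members, 24 were tested, 4 were called lower and 4 were called higher (5.29% and 4.59% of all tested genes). Of the 4 lower, Itga8 and Itga9 had a mean under 1 CPM in each group. The median of the list was -0.08, and its summed level lay between 2335 and 2550 TPM in the control and between 2343 and 2540 TPM with miR-322/-503. Itga4, the α4 subunit of a receptor for fibronectin and VCAM-1, rose from 0.475 ± 0.0759 CPM in the control to 20.1 ± 1.59 CPM (SD, n = 3, log2 fold change 5.40, adjusted p = 1.19e-06, edgeR). Itgb8, whose dimer with αv binds latent TGF-β, rose from 3.58 ± 1.14 CPM in the control to 14.9 ± 0.484 CPM (log2 fold change 2.06, adjusted p = 0.000454, edgeR). Cacna2d1, a calcium channel subunit that also binds thrombospondins, rose from 74.9 ± 6.68 CPM in the control to 195 ± 25.8 CPM (log2 fold change 1.38, adjusted p = 9.99e-05, edgeR). In TPM, Cacna2d1 differed less, with 39.4 in the control and 67.1 with miR-322/-503, and by limma on log2(TPM + 1) it changed by 0.76 on the log2 scale and was not called. Cd36, a thrombospondin-1 receptor and fatty acid transporter, fell from 2.71 ± 0.540 CPM in the control to 0.974 ± 0.120 CPM (log2 fold change -1.47, adjusted p = 0.00229, edgeR). Of receptors named after their values were seen, Cd47, the other main thrombospondin-1 receptor, had 155 ± 12.3 and 150 ± 4.80 CPM, with overlapping groups (adjusted p = 0.71, edgeR). Itga5, the partner of Itgb1 in the classical fibronectin receptor, was lower by a small margin (log2 fold change -0.24, adjusted p = 0.031, edgeR), and for Itgb1 the log2 fold change was 0.25 (adjusted p = 0.11, edgeR).

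TGF-β is a well known inducer of matrix genes. Of 17 genes of the TGF-β pathway, 2 were called lower and 0 higher by edgeR and by DESeq2, where 5.29% of all tested genes were called lower. By the p-value cut-off alone 6 were lower and 2 higher, where 15.5% and 13.2% of all tested genes were, and the median was -0.21. Tgfb3, a ligand, fell from 559 ± 14.4 CPM in the control to 236 ± 10.1 CPM (SD, n = 3, log2 fold change -1.24, adjusted p = 8.48e-06, edgeR). Ltbp2, which encodes an elastic fibre protein of the family named for binding latent TGF-β, changed by -1.32 on the log2 scale (adjusted p = 2.87e-05, edgeR). The family name does not show that this member binds latent TGF-β. The ligand Tgfb1, named after its values were seen, had 97.4 ± 3.80 and 90.4 ± 11.2 CPM, with overlapping groups (adjusted p = 0.434, edgeR).

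Of 20 transcription factors known for fibroblast, tendon and matrix genes, 19 were tested, 1 was called lower and 0 higher, by edgeR and by DESeq2, a share near the 5.29% of all tested genes called lower. By the p-value cut-off alone 7 were lower and 2 higher, where 15.5% and 13.2% of all tested genes were, and the median was -0.25. Mkx, a homeobox factor of tendon cells, had 251, 320 and 273 estimated counts in the control libraries and 0, 5 and 0 with miR-322/-503, at least 23.2-fold lower by the floor of 12 counts per library. Like Comp, it was at or under the floor in each miR-322/-503 library and well above it in each control library. Scx, the bHLH factor of tendon progenitors, was named after its values were seen and changed by -0.81 on the log2 scale (adjusted p = 0.00192, edgeR), with 46.1 ± 4.59 and 26.4 ± 3.34 CPM (SD, n = 3).

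**Figure D4:**
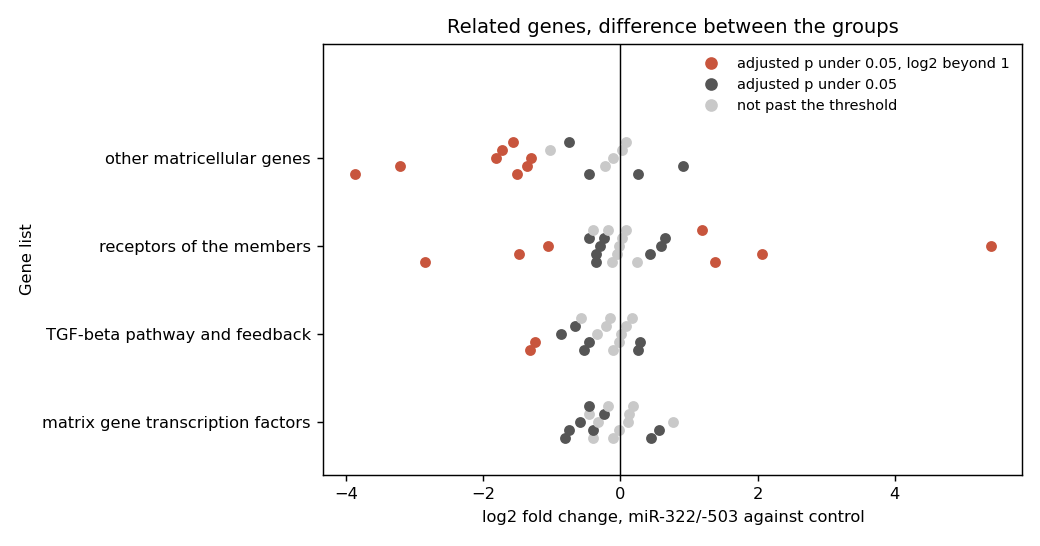
Log2 fold change of miR-322/-503 against control (horizontal axis) for tested genes of the 4 lists, 1 point per gene, with color for the cut-offs passed; Vtn, Itga9 and Mkx, which were at or under the floor with miR-322/-503, are left out. The other matricellular genes reach from Matn3 at -3.87 to Sparcl1 at 0.91, and the receptors from Itga8 at -2.84 to Itga4 at 5.40.

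Markers of other cell types were also followed, and their lists did not all move the same way. Of 11 fibroblast and tendon markers, 9 were tested, 8 were lower and 1, Col1a1, was higher by the p-value cut-off, where 15.5% of all tested genes were lower and 13.2% were higher, and their summed level lay between 6540 and 6883 TPM in the control and between 3949 and 4235 TPM with miR-322/-503. Thy1, Tnmd and Kera were at 0 in each miR-322/-503 library and under 1 CPM in the control. Of 6 smooth muscle and pericyte markers, 4 were lower by the same cut-off, beside the same 15.5% of all tested genes, and 2 did not pass, and their summed level lay between 6476 and 6731 TPM in the control and between 2673 and 2824 TPM with miR-322/-503. Of the 10 muscle markers, 6 were higher, beside 13.2% of all tested genes, 1, Myog, was lower, and 3 did not pass. Of 5 endothelial markers, 4 were at or under the floor in each library and Tek was higher, with a summed level of 0.423 to 0.524 TPM and 1.58 to 2.35 TPM. Of 5 leukocyte markers, Adgre1 was at 0 in each library and Ptprc and Itgam were at or under the floor, and the list summed to 3.31 to 5.74 TPM and 5.71 to 6.49 TPM. Of 5 fat markers, Adipoq and Fabp4 were at 0 in each library, Plin1 was at or under the floor, Pparg did not pass and Cebpa was called lower, with 6.84 CPM in the control and 3.41 CPM with miR-322/-503 (adjusted p = 0.00112, edgeR). Of 5 cartilage markers, Acan and Matn1 were at 0 in each library, Col2a1 was at or under the floor, Matn3 was called lower as given above, and Sox9 was higher by the p-value cut-off (log2 fold change 0.30, adjusted p = 0.0254, edgeR). The 5 fat markers summed to 11.4 to 13.1 TPM and 9.60 to 11.7 TPM, and the 5 cartilage markers to 27.0 to 30.5 TPM and 30.7 to 36.5 TPM. In a bulk sample, fewer cells of a type and less RNA per cell cannot be told apart, and the part of a changed mix of cell states in the values of the 10 genes was not tested.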

How the data were processed

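RNA-seq of 6 libraries, 3 control and 3 miR-322/-503, was analysed. The authors used Trim-Galore for reads, HISAT2 on GRCm38 for alignment and StringTie for quantification; versions, annotation and strand setting are not given in the sources used here. The deposited table holds estimated counts per gene as whole numbers, not normalized. The deposited table of each library adds TPM, FPKM and per-base coverage signal, all made by the authors; a gene listed more than once had its TPM summed. Coverage was used only to find that a count stands for about 75.0 covered bases and that low genes peak at 300, hence 4 counts per read pair; FPKM was not used.

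Counts were tested with edgeR 4.0.16 (filterByExpr, TMM, glmQLFit, glmQLFTest, Benjamini-Hochberg over 18140 genes) in R 4.3.3. The standard error is the log2 fold change divided by the square root of F. Positions and 3'UTRs come from GENCODE M21 on GRCm38. On simulated counts, 200 of 200 genes with a simulated log2 fold of 2 were called, with 3 false calls among 17809 genes. The changed genes were drawn from well expressed genes, and every gene had the same dispersion. Recovery of scarce or more variable genes was therefore not tested. The members and lists were chosen with earlier results of these data known. Named genes are all members and, per list, the 4 called genes with the largest change and at least 1 CPM in the higher group; other list genes were named after their values were seen. Alternatives were DESeq2 1.42.0, 2 other normalizations, 2 filters, counts per read pair, leaving out each library, a replicate block, another floor and limma 3.58.1 on log2(TPM + 1).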

Additional observations from a re-analysis of the deposited data

How the results depend on the processing

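Each of the 9 tested members kept its direction under every alternative that fitted it. The number of members called lower was 5, and 4 to 5 when each library was left out. It was 4 with at least 10 counts in every library, where Comp was not tested, and 4 with limma on log2(TPM + 1), where Thbs3 had a log2 fold change of -0.88. With limma 391 genes were higher and 564 lower over all genes, against 832 and 959 in edgeR, and the receptor list had 2 called higher and 1 lower, against 4 and 4, with Cd36 and Cacna2d1 among those lost. The cause was not tested. With limma Fn1 was at -0.39, short of the p-value cut-off. With at least 10 counts in every library, the receptor list had 2 called lower, and 0 transcription factors were called lower, because Mkx was not tested. With a floor of 3 counts, less than a read pair, and the 4 counts of miR-322/-503 replicate 3 as observed, the ratio for Comp was 52.3-fold. Among scarce list genes, Tnn lost its call in 5 of the 6 fits that left out a library, Itga8 in 4 and Vtn in 3, with adjusted p in edgeR up to 0.12, while Smoc1 without control replicate 1 and Stab1 without control replicate 2 or with DESeq2 gained one. Replicate numbers were not taken to pair libraries, given the correlations of same-numbered deviations, 0.264, 0.156 and 0.0994, although each library correlated best with its own number. With the replicate block, 5 members were called lower, and Cilp2 (adjusted p = 0.0542 in edgeR) and Itga9 (adjusted p = 0.0595 in edgeR) lost their calls. Depth limits Thbs4, Comp and the genes with a mean under 1 CPM in each group.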

Other observations

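Promoter windows of RefSeq (250 bases before to 50 after the start, GRCm38.p6) were matched for 7 of the 10 genes, in 9 windows. Letters searched on both strands were TGANTCA (AP-1), GGAATG (TEAD), GTCTAGAC (SMAD), TATAAA and the CArG box. TGANTCA was in 0 of the 9 windows and in 7.81% of all 32851 windows, the CArG box in 0 and in 1.63%, GTCTAGAC in 0 and in 0.213%, and GGAATG in 1, of Thbs4, and in 14.7%. TATAAA was in 4 of the 9 windows, of Postn, Thbs2 and Tnc, and in 13.6% of all windows. The 2 windows of Tnc overlap and hold the same site, so the 4 windows hold 3 sites. Postn and Tnc were lower and Thbs2 higher with miR-322/-503.

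The study also measured Postn by RT-qPCR in normal and DM1 myoblasts, a comparison of other groups than those described here, and it was not analysed here. Its primers, shown because they define which part of Postn was read, are given 5' to 3'.
Postn-F: cctgcccttatatgctctgct
Postn-R: aaacatggtcaataggcatcact
They matched 4 of 9 annotated Postn transcripts, with an amplicon of 299 bases from exon 1 to exon 4 (chr3:54361154-54367521 of GRCm38).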
